A study of Mus musculus with 42 samples.

Results

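Ribosome-bound RNA from mature oligodendrocytes of mouse frontal cortex was set against the total RNA of wild-type mouse prefrontal cortex. The 2 sets hold 11 of the 42 libraries of the series. They are the 7 cortex libraries of the translating ribosome affinity purification (TRAP) table and the 4 libraries titled wild type in the miR-142 table, with rows joined by gene name. Both were chosen by their titles, with no measured value. The TRAP labels give frontal cortex and mature oligodendrocytes as tissue and cell type, with no genotype, age or treatment. The driver and the tagged ribosomal protein of the TRAP mice are not given in the sources used here. For the wild-type libraries the labels give prefrontal cortex and a genotype that reads only miR-142, so that wild type rests on the title, and the titles of replicates 1 and 2 carry the code F13 and those of replicates 3 and 4 the code M15. Neither age nor treatment is given for them. Nothing in the labels ties each library to an animal of its own, so the spread between libraries may be technical. Bulk cortex of 3 rTg4510-negative mice (transgene-negative mice of a tauopathy line, frontal cortex, titles marked 8mo) and of 4 miR-142 heterozygous mice (prefrontal cortex) served as other references.

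TRAP pulls down ribosomes that carry a tag in 1 cell type, so that messages under translation in those cells can be read without sorting them. Oligodendrocytes wrap axons of the central nervous system in myelin, a lipid-rich membrane held together by a few very abundant proteins. They arise from precursors that carry the PDGF receptor alpha, pass through a newly formed stage, and then switch on the myelin genes under transcription factors such as Sox10 and Myrf. Bulk cortex holds these cells beside neurons, astrocytes, microglia and vessels.

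The values were reads per kilobase and per M reads (RPKM) from 2 tables that were normalized separately, and all levels below were set across those tables after scaling. TRAP libraries held 5.801 to 24.725 M reads (median 8.922) and wild-type bulk libraries 22.783 to 26.517 M. These totals are the smallest that turn the values into whole reads. A whole multiple of one would do so too, and the read counts, floors and order of depth below would change with it. Scaling factors ran from 0.856 to 1.025 in TRAP and from 1.111 to 1.159 in bulk. The median over genes of the SD of log2 levels was 0.53 within TRAP and 0.12 within bulk. Pearson's r across genes, which are not independent replicates, was 0.864 to 0.971 between TRAP libraries, 0.988 to 0.996 between bulk libraries and 0.81 to 0.897 between a TRAP and a bulk library. By these smallest totals, TRAP replicates 2 and 3 were the deepest and replicate 6 the shallowest. TRAP replicate 6 stood apart in endothelial genes and replicate 7 in ribosomal protein and histone genes. Library kit, RNA source, table and dissection split the libraries exactly as the groups do, so their effects and that of cell type cannot be told apart, and no p-value is given between the groups. In bulk tissue, fewer cells of a type and less RNA per cell cannot be told apart either.

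A gene was called where its scaled log2 difference reached 2 in size and all 7 TRAP libraries lay on one side of all 4 bulk libraries. Of 13895 genes kept, 314 were called higher in TRAP (2.26%) and 425 lower (3.06%), and the median difference of all genes was -0.14. With RPKM as deposited, 238 were higher and 650 lower, and the median of all genes was -0.38. The same rule called 54 of 13658 genes (0.395%) between wild-type and rTg4510-negative bulk cortex, whose tables come from the same kit. Against rTg4510-negative bulk, TRAP had 289 genes higher (2.11%) and 479 lower (3.49%). Of the 314 higher genes, 210 were called against that reference too, which is 66.9% of the first list and 72.7% of the second. Against miR-142 heterozygous bulk, 344 genes were higher (2.48%) and 441 lower (3.18%). Of the 314, 209 were called against all 3 references, as were 305 of the 425 lower genes. These comparisons share the TRAP libraries.

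Myelin genes stood far above wild-type bulk. All 40 genes of the myelin and mature oligodendrocyte list were measured, all 40 lay above 0, and 24 were called higher, with a median log2 difference of 2.29. The mean log2 level of the list was 6.33 to 7.01 in the TRAP libraries and 3.91 to 4.31 in wild-type bulk, with no overlap. Mbp, which encodes the basic protein that compacts the myelin membrane, stood at 1650 to 2580 scaled RPKM in TRAP (median 1980) and at 487, 507, 422 and 411 in the bulk libraries. Its log2 difference was 2.14 ± 0.12 (SE, n = 7 and 4). For Mog, a glycoprotein of the outer myelin face, TRAP libraries ran from 78.7 to 155 (median 88.1) and bulk libraries read 21.2, 18, 11.4 and 12.5. In both genes the lowest TRAP library was above the highest wild-type library.

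Some other members differed more than Mbp and Mog. Cnp, the myelin enzyme that hydrolyses 2′,3′-cyclic nucleotides, stood at 939 to 1530 scaled RPKM in TRAP (median 985) against 74, 65.1, 54.8 and 55.4 in bulk, a log2 difference of 4.07. Ermn, a cytoskeletal protein of myelinating oligodendrocytes, read 372 to 601 (median 443) against 24.1, 21.7, 21.6 and 21, a difference of 4.34. Fa2h, which adds the 2-hydroxyl group to myelin galactolipids, had the largest difference of the list, 4.69, with 76.4 to 172 in TRAP (median 98.9) and 3.3, 3.56, 4.14 and 3.49 in bulk. Tmem88b read 438 to 846 (median 519) against 32.1, 27.5, 25.7 and 24.8. Mobp, a basic protein of the major dense line, differed by 3.34. At the other end stood Gal3st1, the sulfotransferase that makes sulfatide, at 0.55, and Gsn, the actin-severing gelsolin, at 0.63.

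**Figure D1:**
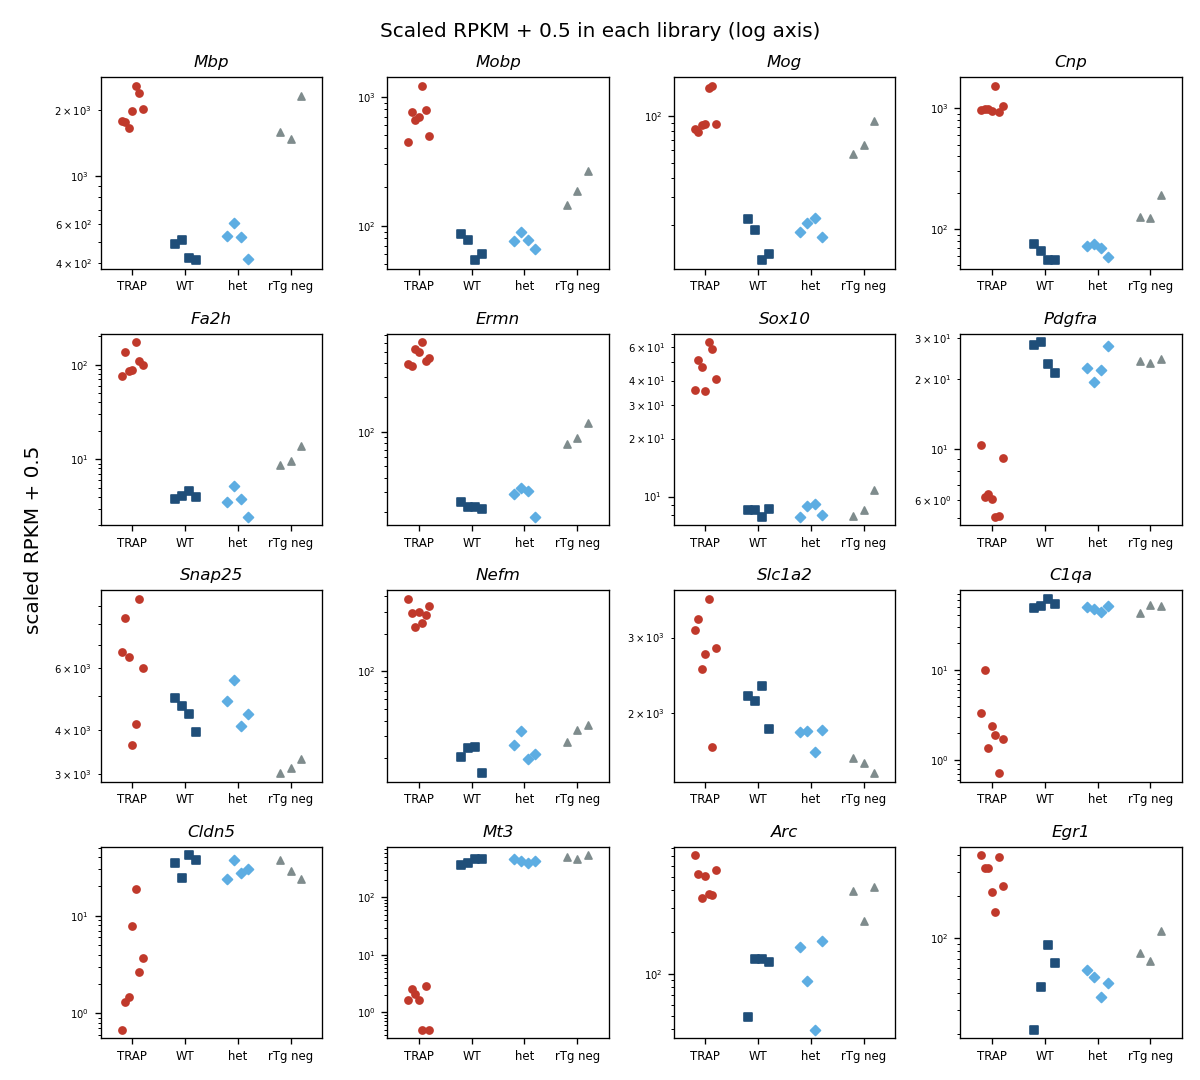
Scaled RPKM plus 0.5 on log axes for 16 genes, 1 point per library, in cortex TRAP (7), wild-type (WT, 4), miR-142 heterozygous (het, 4) and rTg4510-negative (rTg neg, 3) bulk cortex. Mbp and Mog of rTg4510-negative bulk lie near the TRAP libraries, whereas Cnp, Fa2h and Ermn lie far below them in all 3 bulk groups.

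The size of the myelin difference depended on the bulk reference. Against rTg4510-negative cortex the median of the list was 0.88, with 8 of 40 members called, and against miR-142 heterozygous cortex it was 2.16, with 21 of 40. Mbp read 1580, 1470 and 2310 in the rTg4510-negative libraries, so that the groups overlapped and its log2 difference was 0.19. Mog, at 56.5, 64.1 and 92.1 there, differed by 0.53. Mobp, at 143, 184 and 265, differed by 1.84 and lost its call. Cnp still differed by 2.85 and Fa2h by 3.34. The list mean ran from 5.28 to 5.81 in rTg4510-negative bulk, below all TRAP libraries. Between the bulk groups alone, 6 of the 40 genes were called lower in wild-type cortex and all 40 lay below their rTg4510-negative level, with a median of -1.36. The mean of a striatal list, over the 10 genes kept with TRAP, was 6.93 in rTg4510-negative replicate 2 and 3.52 and 3.9 in the others. Over the 10 genes kept between the bulk groups alone, it was 3.81 to 7.08 in rTg4510-negative and 3.96 to 4.12 in wild-type bulk. The choroid plexus list mean, over the 4 genes kept between the bulk groups, was 1.47 to 4.99 in rTg4510-negative bulk and 0.41 to 1.09 in wild-type bulk. Only the rTg4510-negative titles carry an age mark, and the part of age and dissection was not tested.

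Promoters are shown for 3 of these genes, to set their sequence beside genes that were called together. Sox10 and its relatives bind short sites with a CAA core. The letters ACAAAG and ACAATG were searched on both strands of 300 bases around 1 start of each gene, with capitals marking matches on either strand. These bases were 250 before and 50 after that start (RefSeq, GRCm38.p6), which for Cnp is not the gene start at 100574909. Ermn lies on the minus strand at chr2:58052815-58053114, Cnp on the plus strand at chr11:100574689-100574988 and Mobp on the plus strand at chr9:120149492-120149791.
Ermn: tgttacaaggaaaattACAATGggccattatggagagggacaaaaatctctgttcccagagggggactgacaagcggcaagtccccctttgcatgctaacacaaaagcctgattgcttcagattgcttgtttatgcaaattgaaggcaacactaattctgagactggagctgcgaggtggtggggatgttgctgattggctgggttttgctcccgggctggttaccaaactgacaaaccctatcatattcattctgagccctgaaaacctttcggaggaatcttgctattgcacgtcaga
Cnp: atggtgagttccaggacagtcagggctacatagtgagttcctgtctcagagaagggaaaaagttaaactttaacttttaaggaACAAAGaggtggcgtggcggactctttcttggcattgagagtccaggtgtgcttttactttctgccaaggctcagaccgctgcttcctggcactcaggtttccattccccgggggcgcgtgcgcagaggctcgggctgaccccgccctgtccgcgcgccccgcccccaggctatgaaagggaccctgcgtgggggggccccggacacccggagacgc
Mobp: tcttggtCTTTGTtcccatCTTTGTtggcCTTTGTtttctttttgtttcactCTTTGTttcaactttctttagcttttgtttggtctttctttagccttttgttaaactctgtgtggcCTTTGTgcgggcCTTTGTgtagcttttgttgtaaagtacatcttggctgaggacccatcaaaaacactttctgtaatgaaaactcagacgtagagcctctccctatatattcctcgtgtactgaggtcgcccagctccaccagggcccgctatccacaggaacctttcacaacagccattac
Ermn and Cnp hold 1 match each, and Mobp holds 6 of ACAAAG read on the opposite strand. A match was found in 12 of the 28 myelin list promoters in the table (42.9%), in 9 of the 26 named higher genes (34.6%), in 3 of the 25 named lower genes (12%) and in 7789 of all 27025 promoters (28.8%). A match is a description of letters, not of binding.

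Transcription factors of the lineage were higher as well. Of 10 measured, 5 were called higher and none lower, with a median of 2.10, and the list mean was 4.16 to 4.69 in TRAP against 2.25 to 2.40 in bulk. Myrf, the factor that directly activates myelin genes, stood at 20.5 to 57.5 scaled RPKM in TRAP (median 37.6) and at 1.55, 1.8, 1.76 and 1.6 in bulk, a log2 difference of 4.06. Sox10 ran from 34.9 to 62.6 (median 46.8) against 7.98, 8.02, 7.37 and 8.16, a difference of 2.47. Nkx6-2 differed by 2.92, Zfp488 by 2.64 and Tcf7l2 by 2.22. Olig2, which marks the lineage from precursor to mature cell, stood at 16.7 to 50.8 (median 22.7) against 8.6, 7.7, 12.5 and 13.8 and was not called at 1.20. The median was 1.46 against rTg4510-negative bulk, with 3 of 10 called, and Nkx6-2 (0.89) and Tcf7l2 (1.72) lost their calls there.

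Genes of the earlier stages were mixed. Of 11 newly formed oligodendrocyte genes kept from a list of 12, 2 were called higher and none lower, with a median of 0.02. Their list mean was 3.14 to 3.80 in TRAP and 2.85 to 2.99 in wild-type bulk, with no overlap. Bcas1, which marks early myelinating cells and is also expressed later, stood at 150 to 329 scaled RPKM in TRAP (median 214) against 24.2, 22, 19.8 and 19.2. In rTg4510-negative bulk it read 56.5, 68.7 and 95.2, a difference of 1.59, and none of the 11 genes was called against that reference. The precursor list had no gene higher and 2 of 14 lower (Cspg5 and Cacng4), with a median of -1.08. Cacng4 passed the filter only through bulk, which favours lower values. The precursor list mean was 2.31 to 3.09 in TRAP and 3.70 to 3.90 in bulk. The median fell short of the call without wild-type replicate 4 (-0.92) or TRAP replicate 7 (-0.93) and against rTg4510-negative bulk (-0.84). Pdgfra, the receptor that defines precursors, read 4.59 to 9.86 (median 5.7) against 27.7, 28.3, 22.8 and 20.7. This difference of -1.91 missed the call by size, although no libraries overlapped. Cspg5, a proteoglycan that neurons also express, read 15.8 to 36 (median 27.2) against 151, 144, 152 and 143, and Ptprz1, a receptor phosphatase of precursors and astrocytes, gave 0.74.

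Genes of myelin lipid synthesis, breakdown and transfer did not move as 1 group. Of 14 galactolipid and sphingolipid genes, 4 were called higher (Fa2h at 4.69, Gltp at 2.58, Ugt8a at 2.49 and Elovl1 at 2.28), none lower, and the median was 0.87. Of the 14, 11 lay above 0. The list mean was 4.81 to 5.30 in TRAP and 3.84 to 4.03 in wild-type bulk, with no overlap. Ugt8a, which transfers galactose to ceramide, read 67.4 to 154 scaled RPKM in TRAP (median 81.1) and 17.3, 13.9, 16.1 and 14.3 in bulk. In rTg4510-negative bulk it read 34.5, 43.4 and 53.4, a difference of 1.03, and with Elovl1 at 1.87 only 2 of the 14 were called against that reference. None of 20 cholesterol synthesis genes was called, and the median was -0.45, with 16 of the 20 at or below 0. The cholesterol list mean was 3.96 to 4.44 in TRAP, wholly below the 4.72 to 4.78 of wild-type bulk. Hmgcs1, an early enzyme of that pathway, stood at 79.6 to 171 (median 143) against 204, 190, 211 and 187.

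Pan-neuronal genes were not lower as a group. Of 22 pan-neuronal genes, 1 was called higher and 1 lower, with a median of -0.36, and the list mean of TRAP libraries (7.51 to 8.37) overlapped that of bulk (7.94 to 8.06). Snap25, a synaptic vesicle fusion protein, stood at 3620 to 9440 scaled RPKM in TRAP (median 6460) and at 4920, 4690, 4440 and 3940 in bulk, with overlap and a difference of 0.44. Nefm, the medium neurofilament subunit, was the called member, at 229 to 382 (median 292) against 19.9, 23.8, 24 and 14.7. Tubb3, the neuronal beta tubulin, read 31 to 85 (median 48.5) against 204, 214, 194 and 218. Its row lies wholly inside another coding gene, and its call was lost without TRAP replicate 5 or 6 and against rTg4510-negative bulk. The myelin list median exceeded the pan-neuronal one by 2.65 on the log2 scale, a contrast that a single scaling factor per library hardly touches. Against rTg4510-negative bulk those medians were 0.88 and -0.37, a smaller gap.

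Excitatory neuron genes spread around the bulk level, whereas the inhibitory and striatal list means lay wholly below it. In the forebrain excitatory list, 1 of 18 genes was lower and none higher, with a median of -0.33 and a list mean of 5.96 to 6.76 in TRAP against 6.44 to 6.67 in bulk. Camk2a, a kinase of the postsynaptic density, ran from 2140 to 5180 scaled RPKM in TRAP (median 4200). It read 971, 1120, 1140 and 956 in bulk, a difference of 1.82. In the same list Nrgn and Ddn differed by -1.37 and -1.34, with 7 of the 18 genes above 0 and 11 at or below it. Shank1, a postsynaptic scaffold outside the lists that was chosen after its values were seen, ran from 196 to 441 (median 326) against 19.9, 22.5, 32.2 and 25.7. Slc17a7, the vesicular glutamate transporter, read 127 to 297 (median 213) against 518, 523, 549 and 489. Icam5, an adhesion molecule of dendrites, was the called member at -2.73. Of 20 inhibitory genes, 3 were lower (Calb2, Npy and Crh), none higher, and the median was -0.51. The inhibitory list mean was 3.24 to 4.19 in TRAP and 4.33 to 4.95 in bulk. Npy (-2.48) and Crh (-2.22) lost their calls without the length trend and against rTg4510-negative bulk, and Crh also under quantile normalization, with a pseudocount of 1 and without TRAP replicate 7. Calb2, a calcium buffer of some interneurons, stood at 0 to 1.75 in TRAP (median 0.778) and at 16.2, 13.3, 9.62 and 122 in bulk, where replicate 4 stood far above the others. Of 11 striatal genes 9 were kept, none was called, and the median was -0.55, with a list mean of 3.20 to 4.01 in TRAP and 4.20 to 4.36 in bulk. The pan-neuronal and excitatory list means of libraries labelled as mature oligodendrocytes thus overlapped those of bulk cortex.

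**Figure D2:**
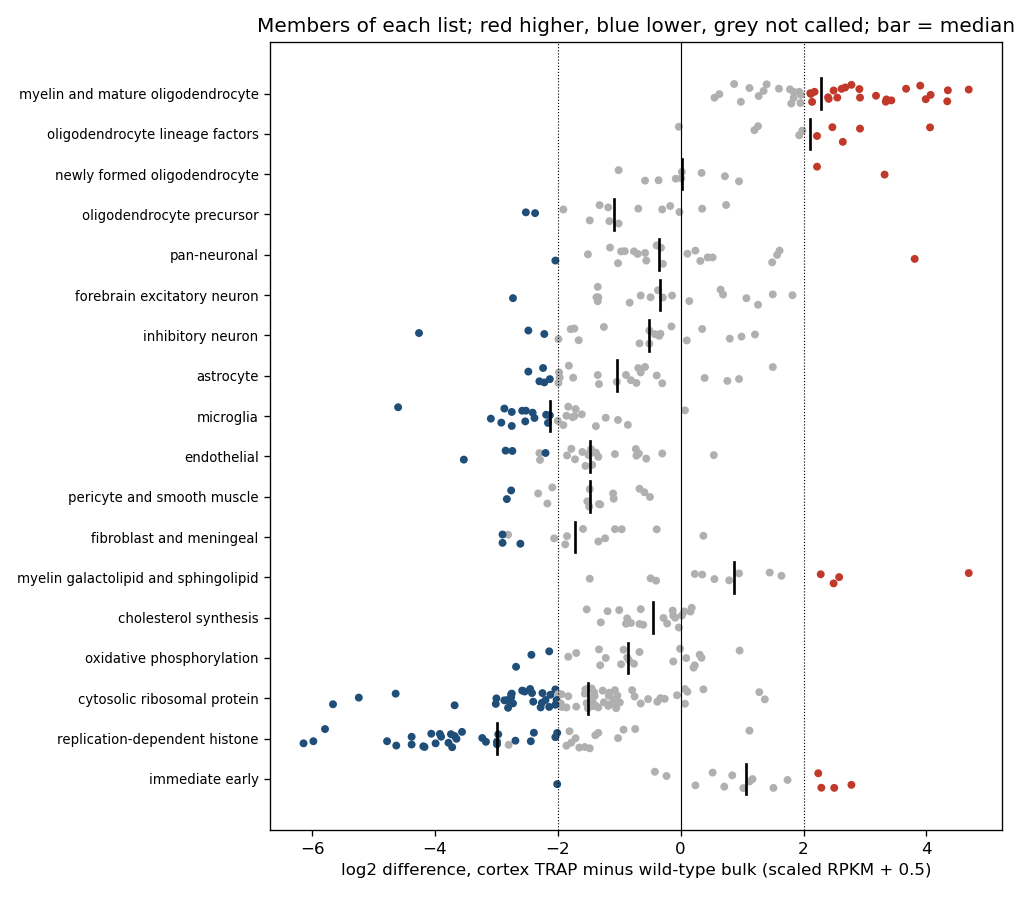
Log2 difference (cortex TRAP minus wild-type bulk, scaled RPKM plus 0.5) of each kept member of 18 gene lists, 1 point per gene, with called genes in red (higher) or blue (lower), the list median as a bar and dotted lines at 2 and -2. Myelin members all lie above 0, the pan-neuronal and excitatory lists spread around it, and the microglia list lies almost wholly below it. Many histone members passed the filter only through bulk, which favours values below 0.

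Astrocyte genes were mostly lower but not evenly. Of 26 listed, 25 were kept, 5 were called lower and none higher, with a median of -1.04, and 4 members lay above 0. Slc1a3, a glutamate transporter, stood at 54.7 to 88.7 scaled RPKM in TRAP (median 79) and at 402, 418, 430 and 414 in bulk. Gja1, the main astrocyte connexin, ran from 18.7 to 38.3 (median 28.9) against 125, 139, 126 and 124. Slc1a2, the other glutamate transporter of astrocytes, read 1670 to 3690 (median 2830) against 2190, 2130, 2310 and 1840, with overlap and a difference of 0.39. Atp1b2, a sodium pump subunit of astrocytes, gave 1.5. Gfap overlapped too, since TRAP replicate 6 stood at 111 and the other TRAP libraries at 16.8 to 36. The median fell short of the call without TRAP replicate 5 (-0.97) and against miR-142 heterozygous bulk (-0.94).

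Microglial genes were the lowest of the glial lists. Of 27 members, 14 were called lower and none higher, with a median of -2.13, and 26 lay below 0. The list mean was 1.61 to 2.31 in TRAP and 4.11 to 4.25 in bulk. C1qa, a subunit of the complement component that microglia make, stood at 0.215 to 9.37 scaled RPKM in TRAP (median 1.39) and at 48, 50.8, 60.5 and 53 in bulk, a difference of -4.60. Cx3cr1, the fractalkine receptor, read 2.97 to 10.1 (median 7.24) against 52.5, 47.2, 56.6 and 52.8. P2ry12, the purinergic receptor of resting microglia, read 7.79 to 17.1 (median 12) against 49.3, 41.8, 48.9 and 43.7 and missed the call at -1.91. Its row, like that of Tubb3, lies wholly inside another coding gene. Sall1, a microglial transcription factor, gave 0.07. Against miR-142 heterozygous bulk the median was -2.01 with 14 members lower. Against rTg4510-negative bulk the median was -1.57 with 8 members lower.

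Vascular and meningeal genes were lower with 1 library apart. Of 25 endothelial genes, 4 were called lower and none higher, with a median of -1.48, and 5 of the others passed the filter only through bulk. The endothelial list mean was 0.47 to 1.70 in 6 TRAP libraries and 3.89 in TRAP replicate 6, against 3.00 to 3.17 in bulk. Without that library 8 of 25 were called lower, beside 3.34% of all genes, and the median was -1.92. Cldn5, a tight junction protein of brain vessels, stood at 0.18 to 18.2 scaled RPKM in TRAP (median 2.17) and at 34.3, 24.1, 41 and 36.9 in bulk. Of 15 pericyte and smooth muscle genes kept, 7 passed the filter only through bulk, which favours lower values. Over the 16 members with any value, 2 were lower and the median was -1.41. Of 14 fibroblast and meningeal genes 3 passed only through bulk, and over all 14, 3 were lower and the median was -1.72. Against rTg4510-negative bulk the medians of the kept genes were -1.02, not called, and -1.22. Mgp, a matrix protein of vessel walls and meninges, read 1.32 to 19 (median 6.34) against 59, 82.8, 31.7 and 34.8. It read 16.1, 16.5 and 10.9 in rTg4510-negative bulk, inside the TRAP range, and its call was lost at -1.18. Of 8 blood cell genes, 3 passed the filter, all through bulk alone, which favours lower values. Alas2, the heme synthesis enzyme of red cells, read 0.0661 to 2.76 (median 0.308) against 3.79, 7.46, 2.98 and 10.2. Its row lies wholly inside another coding gene, and its call was lost under quantile normalization and against rTg4510-negative bulk (-1.23). Of 8 ependymal and 10 choroid plexus genes, 4 of each passed the filter, 2 of each through bulk alone, and none was called. The 4 ependymal genes had a median of -1.48 and list means of -0.36 to 1.07 against 1.19 to 1.58, a list call that was lost under quantile normalization (-1.18), without the length trend (-1.28), with a filter of 2 RPKM (-1.36) and with no filter (-0.25).

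**Figure D3:**
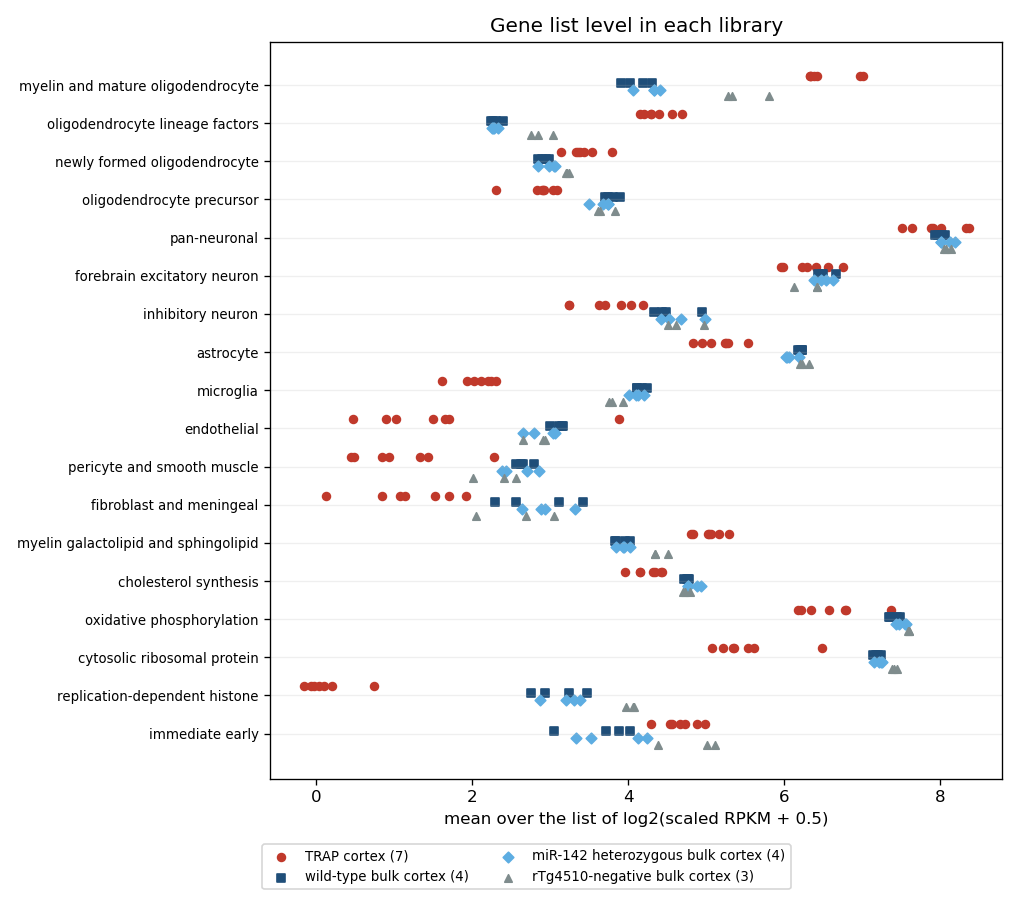
Mean log2(scaled RPKM + 0.5) of 18 gene lists, 1 point per library, in cortex TRAP and in 3 bulk cortex groups. Each bulk group is shown over the genes kept with it, and TRAP over those kept with wild-type bulk. Some lists thus differ in members, such as 43 histone genes for wild-type and 32 for rTg4510-negative bulk. TRAP libraries lie above all wild-type libraries for the myelin list (6.33 to 7.01 against 3.91 to 4.31), among them for the pan-neuronal list and below them for microglia, while TRAP replicate 6 alone (3.89) lies above bulk for endothelial genes.

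Immediate early genes, which neurons and glia switch on within minutes of a stimulus, were higher against wild-type bulk. Of 16 genes 4 were called higher (Dusp1, Egr1, Egr2 and Arc) and 1 lower (Junb), with a median of 1.07. Arc, a synaptic protein of active neurons, stood at 352 to 712 scaled RPKM in TRAP (median 508) and at 48.4, 127, 128 and 122 in bulk, with wild-type replicate 1 lowest. Egr1, a zinc finger factor, read 153 to 394 (median 318) against 21.1, 43.4, 88.7 and 65.5. In rTg4510-negative bulk Arc read 396, 239 and 421, so that the groups overlapped, although 239 lay below all TRAP libraries. The calls of Dusp1, Egr1, Egr2 and Arc were lost there, and the list median was -0.23. Against miR-142 heterozygous bulk it was 0.95 with 3 genes higher, which is below the size for a call. Without wild-type replicate 1 the list median was 0.93, and the calls of Arc and Egr2 were lost.

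The genes with the largest differences outside the lists were mostly near 0 in bulk. Cdr1, Klhl34, Lrtm1, Foxp3 and Cd247 passed the filter only through TRAP, which favours higher values. Cdr1 stood at 146 to 2250 scaled RPKM in TRAP (median 312) and at 0.0233, 0.0427, 0.0509 and 0 in bulk, which is 53295 reads against 5. TRAP replicate 7 read 2250 and the other 6 libraries 146 to 324. Its coding bases (gene at X:61183246-61185558, GRCm38) lie wholly under an exon of a gene on the opposite strand. Since the strand setting of the counting is not given, reads of the 2 genes cannot be told apart. Klhl34 ran from 47.3 to 97.7 (median 70.8) on 11784 reads, against 5 reads in all bulk libraries. Lrtm1, with 8225 reads against 3, lies wholly inside another coding gene, as does Grin1os. Foxp3, the factor of regulatory T cells, read 7.59 to 42 (median 18.5) on 1899 reads against 2, and Cd247, a T cell receptor chain, 20.9 to 66.5 (median 25.2) against 0.0461, 0.169, 0.101 and 0. Lars2, the mitochondrial leucyl-tRNA synthetase, read 124 to 336 (median 160) against 3.15, 3.28, 3.63 and 2.92. In the higher set, 12.4% of genes had at least 50% of their coding bases inside another coding gene and 4.46% under an opposite-strand exon, against 6.42% and 1.27% of all genes kept. Leaving such genes out gave 265 higher and 397 lower.

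Of the 314 higher genes, 31 were on the myelin, lineage factor, newly formed or galactolipid and sphingolipid list. These lists hold 40, 10, 11 and 14 of the 13895 genes kept, with some genes shared between them. A bulk mean under 1 RPKM was found in 92 of the 314, and the share over all genes kept was not counted. Among the 251 higher genes with a TRAP mean of at least 10 RPKM, 30 were on one of these lists.

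The 15 lowest named genes all had lengths of at most 813 bases. Mt3, a small metal-binding protein of neurons and astrocytes, stood at 0 to 2.32 scaled RPKM in TRAP (median 1.15) and at 371, 400, 468 and 467 in bulk, which is 20 reads against 9522 on a length of 204 bases. Sumo2, a protein modifier, read 0.562 to 2.32 (median 1.27) against 119, 120, 92.2 and 104. Of 68 replication-dependent histone genes 43 were kept, and 27 of these passed the filter only through bulk, which favours lower values. Of the other 16, 11 were called lower and none higher, and at least 4 TRAP libraries held those 11 at the filter's level. Histone messages end in a stem-loop in place of a poly(A) tail. Hist4h4 had 0 reads in all TRAP libraries and read 8.18, 9.01, 10.9 and 11.9 in bulk, which at a floor of 3 reads in the shallowest library was at least 6.04-fold lower. Of 78 cytosolic ribosomal protein genes, 28 were lower and none higher, with a median of -1.52. Rps29 stood at 4.85 to 47.9 (median 13.4) against 469, 540, 532 and 540, and Rpl10a, the ribosomal protein most often tagged in TRAP, at 24.2 to 49.5 (median 32.7) against 67.8, 74.1, 68.8 and 69.5. Of 22 oxidative phosphorylation genes, 3 were lower (Cox7c, Atp5k and Cox6c), all short, and the median was -0.86.

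The difference moved with the length used for RPKM. With the genes in 5 equal bins, the median was -0.45 in the shortest (62 to 759 bases), -0.25, -0.21 and -0.03 in the next bins and 0.16 in the longest (2538 to 28011 bases). Lower calls covered 7.73% of the shortest bin and 0.432% of the longest, while higher calls covered 2.12% and 2.59%. By GC content of the transcript the median ran from 0.06 in the lowest of 5 bins to -0.42 in the highest. Without the length trend the medians were -1.25 for ribosomal proteins, 2.39 for myelin and -1.92 for microglia. Of the named genes Npy, Crh, S100a8, S100a9, Cox7c, Atp5k and Cox6c lost their calls. What part length plays in the remaining differences was not tested.

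**Figure D4:**
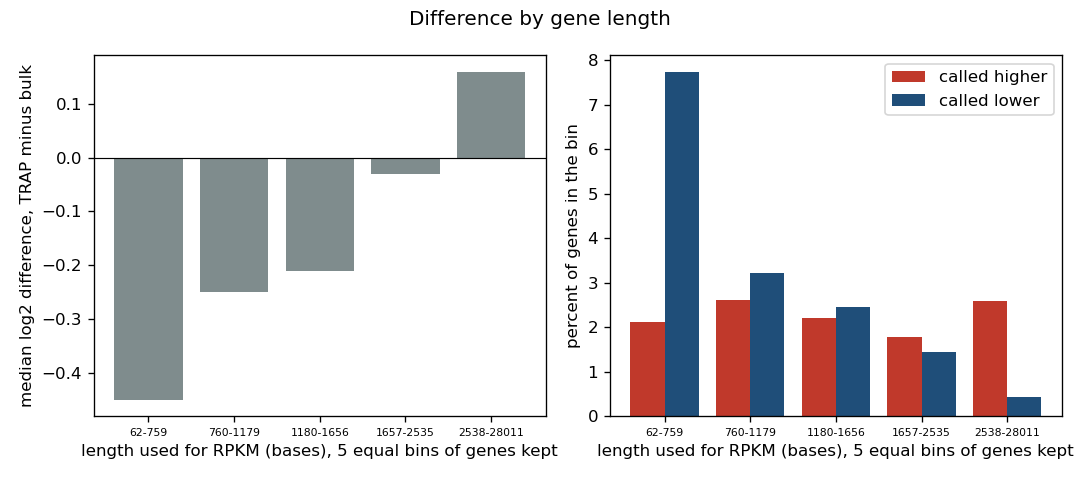
Left, median log2 difference (cortex TRAP minus wild-type bulk) in 5 equal bins of genes by the length used for RPKM; right, percent of each bin called higher (red) or lower (blue). The median rises from -0.45 to 0.16 and lower calls drop from 7.73% to 0.432%, while higher calls stay between 1.77% and 2.61%.

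Values of 2 genes split the libraries within a group. Snhg11, a noncoding RNA of neurons, stood at 6740 and 6680 scaled RPKM in TRAP replicates 2 and 3, at 22400 to 42000 in the other 5, and at 5380, 5450, 5530 and 5100 in bulk. Eif2s3y, on the Y chromosome, read 0 in wild-type replicates 1 and 2, 30.7 and 34.3 in replicates 3 and 4, and 44.8 to 176 in TRAP. Over the 4 measured genes of the Xist and Y-linked list, the mean log2 level was -1 in wild-type replicates 1 and 2. It was 4.42 and 4.47 in replicates 3 and 4 and 4.4 to 5.36 in TRAP. Part of the bulk libraries thus lacked Y-linked reads that all TRAP libraries held, and the part of sex in other differences was not tested.

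Within the TRAP table, the myelin list mean of each library was set against the pan-neuronal, astrocyte, microglial and endothelial means over the 7 libraries (4 relations, exact two-sided permutation tests). Pearson's r was -0.44 for neurons (p = 0.318), 0.09 for astrocytes (p = 0.827), -0.80 for microglia (p = 0.0431) and 0.58 for endothelium (p = 0.169). The adjusted p-values (Benjamini-Hochberg) were 0.424, 0.827, 0.172 and 0.338 in the exact permutation tests, so none passed. Spearman's rho was -0.43, 0.21, -0.50 and 0.64, with exact permutation p-values of 0.354, 0.662, 0.267 and 0.139. Without replicates 6 and 7, which lay farthest from the median of the myelin mean, r was -0.26, 0.07, 0.53 and 0.58, and the microglial relation rests on those 2 libraries.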

How the data were processed

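The authors deposited RPKM. The submitters' processing notes name STAR, HTSeq and mm10, while versions and strand setting are not given in the sources used here. The labels' protocols give NuGEN amplification with RiboZero (50 bp pairs) for one dataset and the TruSeq Stranded kit with RiboZero Gold (75 bp pairs) for the others. The first is taken to be TRAP, since its code matches neither of the others. RIN was 6.1 to 9.5.

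Library totals and the lengths behind RPKM were recovered from the steps of low values. Values were divided by median-of-ratios factors over 10520 genes at 1 RPKM or more in all 11 libraries. Genes at 0.5 RPKM or more in at least 4 of them were kept (13895 of 20661), on the scale log2(value + 0.5), which understates the differences of low genes. A list was called where its median reached 1 in size and its mean did not overlap. RPKM are not counts, so no count model was used.

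Named genes were the 15 highest and 15 lowest called genes at 2 RPKM or more, up to 4 called members of each list (or the 2 most abundant) and a set of markers, of which a part is printed. Gene positions came from RefSeq, and overlaps and GC content from GENCODE vM21. Mitochondrially encoded genes were not in the tables. The members and lists were chosen with earlier results of these data known. The steps were tested on simulated data. Tools were scipy 1.17.1, pandas 2.3.3 and numpy 2.4.6 under Python 3.11.15.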

Additional observations from a re-analysis of the deposited data

Results flagged for a closer look

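A library far from the rest of its group was found in 9 of 108 groups examined, over gene lists and named genes, and chance gives about 5%. TRAP replicate 7 was lowest for the oligodendrocyte precursor list mean (2.31 on the log2 scale) and for Tmem119 (2.44 scaled RPKM). It was highest for the ribosomal protein list (6.49), the histone list (0.74) and Cdr1 (2250 scaled RPKM). TRAP replicate 6, with the smallest recovered total of the 7, was highest for the endothelial list (3.89), Gfap (111 scaled RPKM) and Cnp (1530 scaled RPKM). In wild-type bulk, replicate 1 was lowest for Arc, at 48.4 scaled RPKM. Their causes were not tested.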

How the results depend on the processing

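With RPKM as deposited, 650 genes were lower, and the medians of the astrocyte and microglia lists were -1.30 and -2.39. A pseudocount of 0.1 gave 701 lower genes. A log2 threshold of 1 gave 1274 higher and 1852 lower genes, and one of 3 gave 102 and 73. Against rTg4510-negative bulk the medians were 0.88 for myelin, -1.57 for microglia and -0.23 for immediate early genes, and 24 of the 84 named calls were lost. The cause was not tested. Leaving out 1 library at a time gave 304 to 354 higher and 395 to 473 lower genes. The myelin and microglia relation turned from -0.80 to 0.53 without its 2 farthest libraries. The precursor list sat at the limit of its call, with medians of -0.92 under quantile normalization and -0.99 without the length trend. Leaving out TRAP replicates 2 and 3, removing length and GC trends and leaving out overlapping genes were chosen after seeing the data. No paired analysis was possible because the labels give no numbers that tie a TRAP library to a bulk library and no test was made between them. Low TRAP depth limits genes under 3 reads a library.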

Other observations

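Outside the lists, abundant genes named here after their values were seen were higher in TRAP. Fth1, the ferritin heavy chain that stores iron, stood at 4280 ± 2400 scaled RPKM (SD, n = 7) against 902 ± 43.9 (n = 4). Tubb4a, a beta tubulin of oligodendrocytes, stood at 1480 ± 224 against 157 ± 24.3. Sptbn1, a spectrin, stood at 1880 ± 567 against 235 ± 8.09, and Ank3, the ankyrin of the axon initial segment and nodes, at 564 ± 146 against 75.9 ± 6.61. Apoe, the lipid carrier that astrocytes secrete, was lower, at 203 ± 48.7 against 1150 ± 88.6, as was Sparcl1, at 176 ± 29.2 against 1100 ± 39.5.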
